A study of Rattus norvegicus with 6 samples.

Results

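On the Agilent rat arrays used here, 263 probes are printed on 10 spots of every array, whereas the other 40749 of the 41012 non-control probes are printed once and none lies in between. The 263 probes were chosen by this print number alone, without any measured value, and each carries its own name in the scanner files. Most names are gene symbols and some are sequence, transcript or probe names, so that 263 names need not be 263 distinct genes, although the probes are called genes below. These are genes that many laboratories measure, among them cytokines (Tnf, Il1b, Il10), astrocyte and neuron genes (Gfap, Bdnf, Arc), receptors of hormones (Esr1, Lepr) and signalling proteins (Irs1, Akt1). Because 10 copies of the same sequence report on the same labelled RNA, the error of each ratio within an array can be measured gene by gene, which is not possible for a probe printed once.

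The genes belong to several systems of brain physiology. Cytokines and chemokines carry signals between immune cells, glia and neurons, and many are kept at very low transcript levels in a healthy brain. Immediate early genes such as Arc and Egr1 are transcribed within minutes of synaptic activity, and the protein of Arc acts at synapses during memory formation. Neurotrophins, glutamate and GABA receptors, neuropeptides and components of insulin and leptin signalling have all been studied in the hippocampus of running animals, and housekeeping genes such as Actb, Gapdh and Hprt are used as references.

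The RNA came from the whole hippocampus of male Wistar rats in 3 groups, aged 11 weeks before rearing, habituation and training began. Sedentary controls (CONT) rested on the treadmill, and the mild exercise (ME) and intense exercise (IE) groups ran at 15 and 40 m/min for 60 min/day, 5 times/week, over 6 weeks. Habituation to running lasted longer for IE than for ME and used slight electric shocks, which CONT did not share. By the study's text, ME rats received no shocks after habituation, whereas certain IE rats that refused to run were sparingly given more. Some IE rats that refused to run were excluded. By the series record tissue was taken 24 or 36 h after the last session, while the study's text gives a later time, and RNA of 5 rats was pooled per group. All 3 pairings of the pools (ME vs CONT, then IE vs CONT, then IE vs ME) were hybridised on 2 arrays with the dyes Cy3 and Cy5 exchanged. The sample descriptions name the arrays of a pair Pool 1 and Pool 2, whereas the study's methods describe 1 pool per group, which is the reading used here. Under it array 2 of a dye swap repeats the RNA of array 1, no test across rats was possible and every spread below is technical. If the arrays held separate pools, the differences between arrays of a pair would also hold variation between rats, and these cannot be told apart. In such tissue pools, fewer cells of a type and less RNA per cell cannot be told apart.

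Every value below is a log2 ratio, turned so that a positive value means more RNA in ME or IE than in CONT, or more in IE than in ME. The ratio of a gene on an array is the mean over its kept spots, and the ratio of a comparison is the mean of both arrays. A gene was counted as beyond the spot spread when the 95% t interval of the spot mean excluded 0 on both arrays and both arrays pointed to the same pool. The interval covers measurement error within an array and says nothing about the variation between rats.

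The arrays carried 60-base probes, and the first 30 bases of 7 of them are shown with T in capitals because the ratio of a probe turned out to depend on the dye as well as on the pools. The first 4 are genes beyond the spot spread in IE vs ME, and the last 3 those with a strong leaning to 1 dye. The T in these bases do not separate the 2 sets, since Prkcd has 14, Npy 13 and Crh 11. Positions are those of the scanner files on the rn3 rat assembly, for the whole probe. Whether a probe lies in a coding exon or an untranslated region was not analysed here.
Arc: cTggagaTcTcaagagTgTggcTaTccccT
Prkcd: acTgTTTgTgaaTTTgccTTccTTTTgcca
Timp1: ggggTgTgcacagTgTTTcccTgTTcagcc
Aqp1: ccacTggcaTagTacagcTgcaTacTcTTc
Gfap: agcaagacaaacaTTcagacagaaaggaaa
Npy: TTccgacccaTTTcccTTgTTgTcgTTgTa
Crh: gcaTgcacaaagTgTgTTTcTTTgTagTaa

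The Arc probe matches the minus strand of chr7:112806255-112806314. The Prkcd probe lies on the minus strand at chr16:5954514-5954573 and the Aqp1 probe on the plus strand at chr4:84396592-84396651. The Timp1 probe spans chrX:12548256-12549259 on the minus strand, 1004 bases for a 60-base probe, so its match to the assembly is split. The Gfap probe lies on the minus strand at chr10:92075205-92075264. Npy is on the plus strand at chr4:78321255-78321314 and Crh on the minus strand at chr2:104709215-104709274.

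Not all of these probes gave a signal in hippocampus. For 194 of the 263, all 60 spots on the 6 arrays were well above background in both channels, for 55 some spots were, and for 14 no spot was. The 14 without a spot were Tnf, Ifng, Lep, Epo, Gdnf, Ucp3, Cyp1a1, Oprm1, Agtr1b, Lhcgr, Bcl2l1 and 3 transcripts under sequence or locus names. This describes the probes, since all 3 other probes of Bcl2l1 and the other probe of Gdnf, printed once, were well above background on every array. Of the 2630 spots per array, 80.5 to 85.7% were well above background in both channels, against 65.6 to 73.7% of the spots of probes printed once. By this measure the slide that carried IE vs ME was dimmer (81.1 and 80.5%) than the slide with the 4 arrays against CONT (84.4 to 85.7%). Of 15 probes for 9 hippocampal neuron markers, 12 were well above background on every array, and the other 3, of Tdo2 and Lct, were not. By the same measure 14 of 15 meningeal and 8 of 12 cerebellum marker probes had signal, so signal alone does not identify the tissue.

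The spread between spots was small for genes with signal and large for genes without. The median between-spot SD was 0.049 to 0.058 per array, and 0.037 to 0.049 among genes with all 10 spots of that array above background, against 0.45 to 0.62 among genes with none. It was lowest for AI045017 (0.014, mean of 6 arrays), where nearly all spots hold a log ratio of exactly 0 because the software judged neither channel measured, so its low SD is no sign of precision. Next came the ubiquitin ligase gene Trim2 and the purine salvage gene Hprt, with 0.019 each and all spots above background. The largest SDs were those of Tnf (0.79), Lep (0.78), Prl (0.77), Ifng (0.75) and Esr1 (0.71), 5 genes with at most 8 of 60 spots above background.

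**Figure D1:**
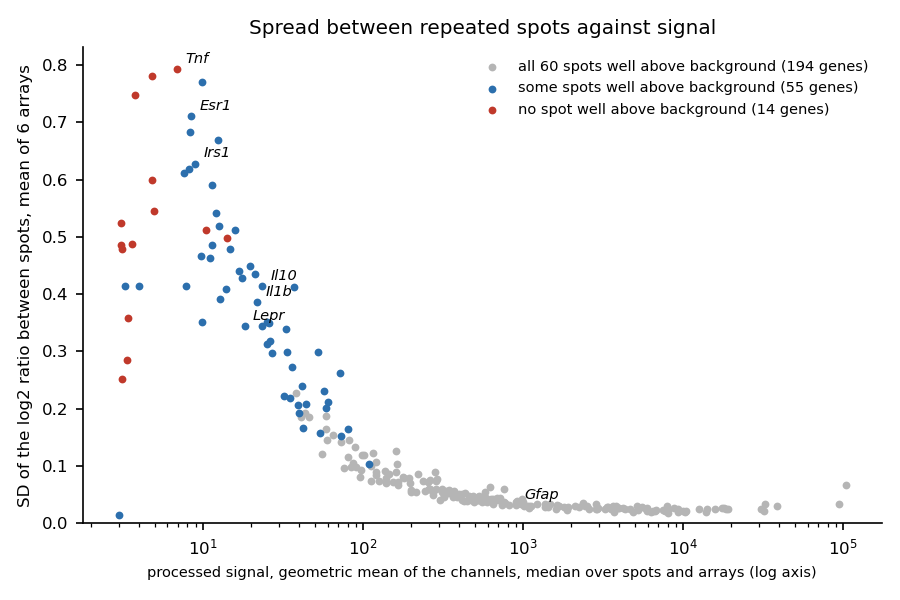
Between-spot SD of the log2 ratio (mean of 6 arrays) against processed signal on a log axis, with 1 point per gene. The 194 genes with all spots above background lie at the right and low, and Tnf, Esr1 and Irs1 sit at the upper left with SDs of 0.79, 0.71 and 0.63.

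Being printed 10 times also changed how these probes were treated. The scanner software compares a spot with the others of its probe only from 10 spots on, so population outliers were marked among these genes alone. They made up 3.42 to 8.37% of their spots per array, whereas 0.0025 to 0.20% of the spots of other probes were marked, for uneven spots. At least 6 spots per gene and array remained. A Gfap spot on 1 IE vs CONT array, far from the other spots of Gfap, was among those left out.

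The study's limits of 1.5 and 0.75 were applied here to both arrays of a dye swap, as Cy5/Cy3 of at least 1.5 on 1 array and at most 0.75 on the other, with a p under 0.01 from the software's error model on both. By this rule none of the 263 genes was called in any comparison. Over all probes the same rule called 0.122% in ME vs CONT, 0.0293% in IE vs CONT and 0.0732% in IE vs ME, so a count of 0 among 263 does not stand apart from the array. By the fold range without the p, 1 gene was past it in ME vs CONT (Lepr, higher), where 0.987% of all probes were. None was past it in IE vs CONT (0.667% of all probes) and 1 in IE vs ME (Cyp2e1, lower, against 1.06%). Lepr had a median p of 0.0028 on array 1 and 0.17 on array 2. Cyp2e1, a cytochrome P450 that oxidises ethanol, had 3 of 60 spots above background and median p of 0.51 and 0.34. With limma, all probes were fitted over the 6 arrays together, which gave none of these genes an adjusted p under 0.05, and 44, 38 and 36 genes an unadjusted p under 0.05, in the same order of comparisons. These are 16.7, 14.4 and 13.7% of the 263, against 8.35, 7.75 and 9.32% of all 40911 probes fitted, whose ratios mostly rest on 1 spot per array. The 263 are means of up to 10 spots and more of their spots were above background, and the part of this in the difference was not tested.

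Smaller differences were counted by the spread of the spots on each array, which does not hold the error between arrays. Over the 263 genes, the arrays of a dye swap differed by a median of 0.18 in ME vs CONT, 0.19 in IE vs CONT and 0.26 in IE vs ME. Beyond the spot spread were 26 genes in ME vs CONT (17 higher and 9 lower, 9.89%), 26 in IE vs CONT (13 and 13, 9.89%) and 25 in IE vs ME (12 and 13, 9.51%), with 49 genes in at least 1 of them. When the scanned signals were instead corrected by normexp and loess, ME vs CONT gave 20 genes, 17 higher and 3 lower, of which 16 were among the 26. Probes printed once cannot be scored this way, so these shares have no counterpart over the whole array. The median size of the difference among these genes was 0.11, 0.11 and 0.13, and all but Lepr in ME vs CONT stayed under 1.5-fold. Of the 3 sets, 24, 25 and 25 genes had all spots above background. The median ratio over all 263 genes was -0.0016, -0.0010 and -0.0049, and over all probes 0, 0 and -0.0016.

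**Figure D2:**
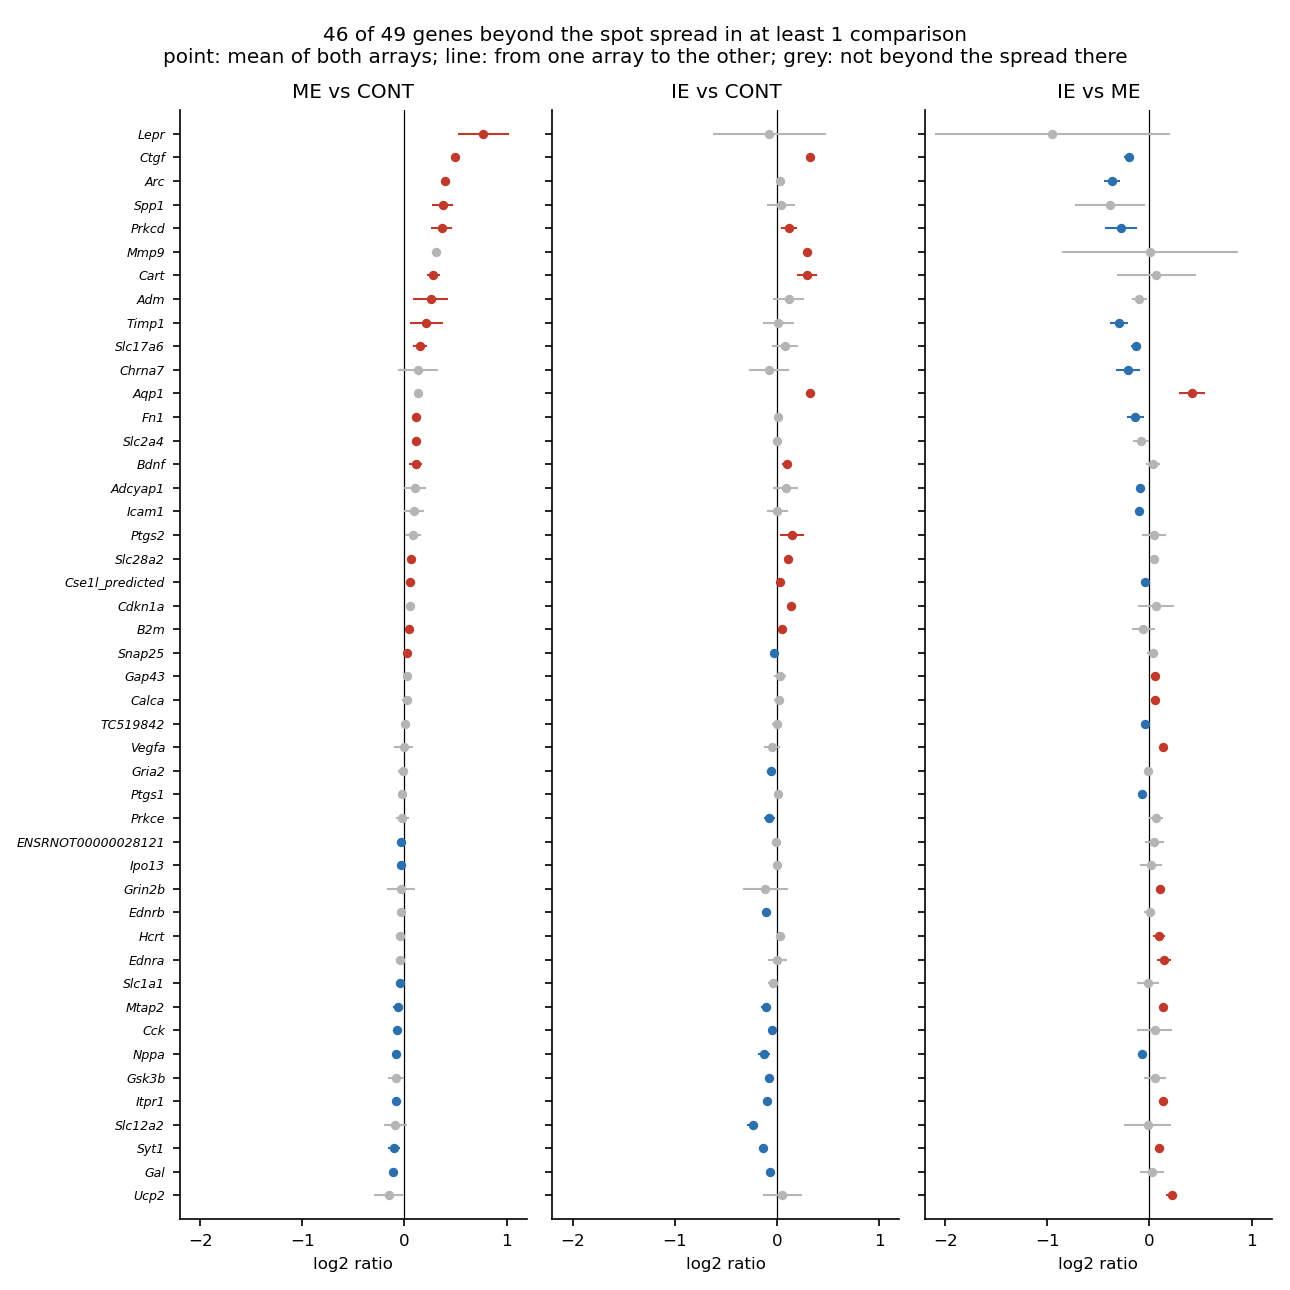
Log2 ratio of 46 of the 49 genes beyond the spot spread in at least 1 comparison, ordered by ME vs CONT, with the mean of both arrays as a point and a line from one array to the other. Lepr, Ctgf, Arc, Spp1 and Prkcd lead in ME vs CONT, Aqp1 and Ctgf in IE vs CONT, and in IE vs ME Aqp1 (0.42) and Arc (-0.37) mark the ends among the coloured points.

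In ME vs CONT the genes with the largest differences were all higher in ME and included a receptor, secreted and matrix proteins and an activity-linked gene. Arc, the synaptic immediate early gene, had 0.38 ± 0.035 on array 1 and 0.41 ± 0.031 on array 2 (SD over 10 spots each), a ratio of 0.39 or 1.31-fold. All 20 spots were above 0. In IE vs CONT the arrays gave 0.00 ± 0.031 and 0.06 ± 0.036, with only the second apart from 0. Directly hybridised, IE had less Arc than ME, with -0.30 ± 0.026 and -0.43 ± 0.022, so both ways of measuring place Arc higher in the ME pool than in the IE pool. Egr1, another immediate early gene of the set, had 0.06 and 0.09 against CONT in ME and IE, and -0.04 in IE vs ME, and was beyond the spot spread in none of them.

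Ctgf (now Ccn2), a matricellular protein that modulates growth factor and integrin signals, was higher in both exercise pools. Its arrays gave 0.49 ± 0.043 and 0.50 ± 0.057 in ME vs CONT, or 1.41-fold. In IE vs CONT they gave 0.32 ± 0.045 and 0.33 ± 0.047, or 1.25-fold. IE vs ME gave -0.16 ± 0.060 and -0.24 ± 0.040, so that the pools ranked ME, IE, CONT in each comparison. The arrays of a dye swap differed by less than the SD between spots against CONT.

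Prkcd, protein kinase C delta, had 0.46 ± 0.069 and 0.27 ± 0.037 in ME vs CONT. It had 0.19 ± 0.020 and 0.05 ± 0.051 in IE vs CONT, and -0.14 ± 0.031 and -0.43 ± 0.063 in IE vs ME. The 3 comparisons again ranked ME, IE, CONT, but the arrays of each pair lay apart by more than the spot SD. Slc17a6, the vesicular glutamate transporter of many subcortical neurons, had 0.21 and 0.09 in ME vs CONT and -0.10 and -0.17 in IE vs ME, and in IE vs CONT its arrays pointed opposite ways (0.20 and -0.04). Prkcd and Slc17a6 are also members of the thalamus marker list, of which 5 genes with 6 probes were found. The processed signal of that list summed to 1534 to 1612 in ME and 1294 to 1398 in CONT over the arrays of ME vs CONT. Slc17a6 and Prkcd, with median signals of 755 and 523 over spots and arrays, made up most of this sum. It therefore largely repeats their own ratios and is no separate measure. Of the other thalamus markers, Gbx2 had -0.01 and was well above background throughout, while Lef1 (0.03) and both probes of Shox2 (0 and 0.32) were not. Of 12 probes for 9 cerebellum marker genes, 8 were higher in ME than CONT on both arrays (median 0.21, 1 called). None was higher in IE than CONT on both arrays (median 0.0017), and 5 were lower in IE than ME on both (median -0.23, none called). Their summed processed signal was 12674 to 12934 in ME and 12218 to 12633 in CONT, and of the 8 probes with signal on all arrays that of Car8 had 0.54 and that of Pcp2 0.31. The part of neighbouring tissue in the ratios of Prkcd and Slc17a6 was not tested.

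Extracellular matrix genes followed. Timp1, an inhibitor of matrix metalloproteinases, had 0.37 ± 0.052 and 0.06 ± 0.062 in ME vs CONT and -0.22 ± 0.048 and -0.37 ± 0.051 in IE vs ME. In IE vs CONT its arrays split, with 0.15 and -0.13. Fn1, fibronectin, had 0.15 and 0.08 in ME vs CONT, 0.02 and -0.01 in IE vs CONT, and -0.07 and -0.21 in IE vs ME. Spp1, the secreted phosphoprotein osteopontin, had 0.47 ± 0.101 and 0.28 ± 0.099 in ME vs CONT with 55 of its 60 spots above background, and was not beyond the spread in the other comparisons (0.16 and -0.09 in IE vs CONT, -0.05 and -0.72 in IE vs ME). Markers of the meninges, none printed 10 times, were measured beside these genes. All 15 probes of 12 meningeal marker genes were higher in ME on both arrays, with a median of 0.83 and 9 called by the fold range and p. In IE vs CONT their median was -0.011 with none called, and in IE vs ME -0.67 with 8 called lower. Their summed processed signal was 42932 to 45856 in ME and 21230 to 21868 in CONT. The part of meningeal tissue in the ratios of Timp1, Fn1, Spp1 and Ctgf was not tested.

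Lepr, the leptin receptor, had the largest ratio of the set in ME vs CONT, with 1.01 ± 0.234 (10 spots) and 0.53 ± 0.238 (9 spots), or 1.71-fold. Only 12 of its 60 spots were well above background in both channels, and in this dye swap the ME channel was so in 19 of 20 spots and the CONT channel in 12. In IE vs CONT its arrays gave 0.47 and -0.62, and in IE vs ME 0.19 and -2.09, so the array with the exercise or IE pool in Cy5 was the higher one each time. Cart (now Cartpt), which encodes a neuropeptide that restrains feeding, had 0.23 and 0.34 in ME vs CONT and 0.20 and 0.38 in IE vs CONT. In IE vs ME the Cart arrays split (-0.31 and 0.44). Adm, the vasodilator peptide adrenomedullin, had 0.42 and 0.09 in ME vs CONT and 0.26 and -0.03 in IE vs CONT.

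**Figure D3:**
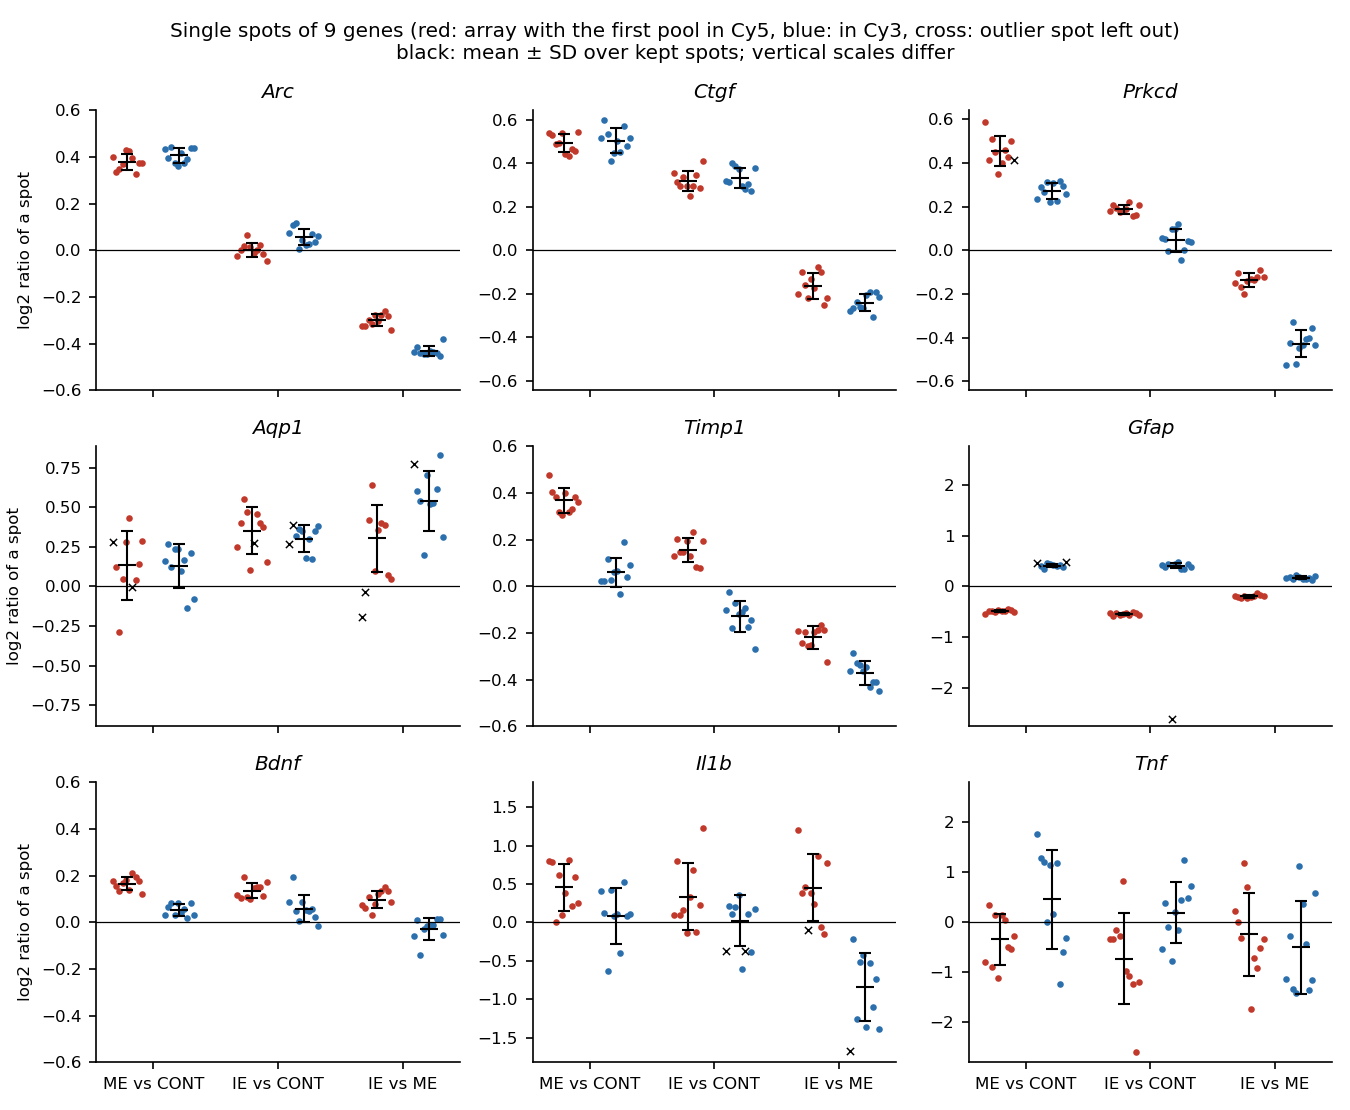
Single spots of 9 genes on the 6 arrays as log2 ratios, red where the first pool was in Cy5 and blue where it was in Cy3, with the mean ± SD of kept spots in black, crosses for outlier spots left out, and vertical scales that differ between genes. Arc and Ctgf have both arrays of a pair side by side, Gfap has tight spots on opposite sides of 0, and the spots of Tnf cover both sides on every array.

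The genes that were lower in ME were lower by little. Gal (galanin, an inhibitory neuropeptide) had the lowest ratio of those beyond the spread, -0.12, with -0.12 ± 0.037 and -0.11 ± 0.030. Syt1, the calcium sensor of synaptic vesicle release, had -0.10, and Itpr1 (the inositol trisphosphate receptor), Nppa (atrial natriuretic peptide) and Cck (cholecystokinin) -0.08 each. The arrays of each of these 5 genes were on the same side of 0 by the rule that selected them, and their ratios amount to 0.92- to 0.95-fold.

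In IE vs CONT the largest ratios were those of Aqp1 and Ctgf. Aqp1, the water channel of the choroid plexus epithelium, had 0.35 ± 0.151 (9 spots) and 0.30 ± 0.083 (8 spots), or 1.25-fold. In ME vs CONT it had 0.13 ± 0.217 and 0.13 ± 0.137, not beyond the spot spread on array 1. IE vs ME gave 0.30 ± 0.210 and 0.54 ± 0.191, or 1.34-fold. Choroid plexus markers, none of which is printed 10 times, were measured beside Aqp1. Of 11 probes for 10 marker genes, 10 were higher in IE than CONT on both arrays (median 0.54, 4 called), 5 in ME than CONT (median 0.13, 3 called) and 8 in IE than ME (median 0.38, 2 called). Their summed processed signal was 7495 to 8251 in IE and 3939 to 4392 in CONT, with Ttr, the plexus transthyretin, at 2.51, while 6 of the 11 probes were well above background on all arrays. The part of choroid plexus tissue in the ratio of Aqp1 was not tested.

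Mmp9, a gelatinase that remodels matrix, had 0.31 ± 0.285 and 0.27 ± 0.176 in IE vs CONT. Its ratio in ME vs CONT was similar (0.35 and 0.28) but the spots of array 1 were too scattered (SD 0.459), and the IE vs ME arrays gave 0.85 and -0.84. Ptgs2, the inducible cyclooxygenase, had 0.25 ± 0.047 and 0.04 ± 0.046 in IE vs CONT and 0.15 and 0.01 in ME vs CONT. Lower in IE were Slc12a2, the sodium-potassium-chloride cotransporter (-0.19 and -0.28), Syt1 (-0.11 and -0.17), Nppa (-0.18 and -0.07), and Mtap2 (now Map2), the dendritic microtubule protein (-0.15 and -0.07). For Slc12a2 the spots of array 2 had an SD of 0.26.

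In IE vs ME the highest genes after Aqp1 were Ucp2, a mitochondrial carrier (0.17 and 0.26), the endothelin receptor Ednra (0.20 and 0.08), Vegfa, the vascular growth factor (0.13 and 0.14), and Mtap2 (0.12 and 0.15). By way of CONT, the difference between IE and ME was 0.21 for Ucp2 and 0.05 for Ednra, but -0.04 for Vegfa and -0.05 for Mtap2, so for Vegfa and Mtap2 the direct arrays and the arrays against CONT did not point the same way. The lowest were Arc (-0.37), Timp1 (-0.30), Prkcd (-0.28), Chrna7, a nicotinic acetylcholine receptor subunit (-0.21, with -0.31 and -0.10), and Ctgf (-0.20).

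Among 10 cytokines, chemokines and their receptors, 1 was beyond the spot spread (Spp1, in ME vs CONT), and 1 (Cntf) had all spots above background. The list medians, here and below in the order ME vs CONT, then IE vs CONT, then IE vs ME, were 0.062, 0.021 and -0.20. Tnf, the tumour necrosis factor, had no spot above background in both channels and array means of -0.34 ± 0.50, 0.46 ± 0.99, -0.73 ± 0.91, 0.20 ± 0.60, -0.24 ± 0.83 and -0.50 ± 0.93 over the 6 arrays. On each array the mean was smaller than the SD between spots of the same probe, which is wider than the interval of the mean. Tnf was beyond the spread in no comparison. Il1b, which encodes interleukin 1 beta, had 26 of 60 spots above background and 0.45 ± 0.30 and 0.08 ± 0.36 in ME vs CONT. It had 0.34 ± 0.44 and 0.02 ± 0.33 in IE vs CONT, and 0.45 ± 0.44 and -0.84 ± 0.45 in IE vs ME. Il10, of the anti-inflammatory interleukin 10, had 45 of 60 spots above background and ratios of 0.02, -0.15 and -0.20, with array SDs of 0.18 to 1.00. Ccl2, a monocyte chemoattractant, had 14 of 60 spots above background and 1.38 and -2.36 in IE vs ME, with Cy5 brighter on both arrays.

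Some other immune genes were beyond the spot spread in at least 1 comparison, as were 49 of all 263 genes. Of 8 inflammatory mediators, Ptgs2 was beyond the spread in IE vs CONT and Ptgs1 in IE vs ME (-0.09 and -0.05), with list medians of 0.036, 0.058 and 0.00044. Of 3 lymphocyte and antigen presentation genes, B2m, the light chain of class I molecules, had 0.02 and 0.07 in ME vs CONT and 0.03 and 0.06 in IE vs CONT. Its 3 other probes, printed once, had -0.01, 0.08 and -0.01 in ME vs CONT. Icam1, the leukocyte adhesion receptor, had -0.10 on both arrays of IE vs ME. The list medians were 0.047, 0.0043 and -0.099. Cd36, a fatty acid receptor with 16 of 60 spots above background, had a ratio of -0.08 in ME vs CONT and -0.03 in IE vs CONT. In IE vs ME its arrays gave -0.95 ± 0.71 and 0.12 ± 0.40. Nos2, the inducible nitric oxide synthase with 3 of 60, had 0.42 ± 0.82 and -1.05 ± 0.67. Neither was beyond the spread.

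Of 19 genes of insulin, glucose and adipokine signalling, 12 had all spots above background. Beyond the spread were Lepr and Slc2a4, the insulin-responsive glucose transporter (0.11 and 0.12), in ME vs CONT, Gsk3b, a kinase inhibited by insulin signalling (-0.05 and -0.11), in IE vs CONT, and Ucp2 in IE vs ME. The list medians were -0.024, -0.036 and 0.0056. Irs1, the substrate that links the insulin and IGF-1 receptors to the kinases below them, had 7 of 60 spots above background. Its array means were 0.04 ± 0.64 and -0.46 ± 0.64 in ME vs CONT. They were 0.07 ± 0.69 and -0.20 ± 0.64 in IE vs CONT, and -0.02 ± 0.44 and -0.08 ± 0.72 in IE vs ME. None was larger than the SD between spots of the same array, which is wider than the interval of the mean. Irs1 was beyond the spread in no comparison. Igf1, with all spots above background, had -0.09 ± 0.23 and 0.27 ± 0.25 in ME vs CONT.

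None of the 4 lipid genes and none of the 9 nuclear receptors and steroid synthesis genes was beyond the spread in any comparison. Lpl, the lipoprotein lipase, was lower on average (-0.12 in ME vs CONT and -0.15 in IE vs CONT), yet its arrays gave 0.07 and -0.32, then 0.07 and -0.38. Srebf1, the transcription factor of lipid synthesis, had 0.09 in both, with arrays of -0.20 and 0.38 each time. Medians were -0.063, -0.027 and 0.017 for lipid genes and 0.011, 0.0081 and -0.0017 for nuclear receptors. Esr1, oestrogen receptor alpha, had 1 of 60 spots above background and 0.00 ± 0.83 and 0.08 ± 0.62 in ME vs CONT, -0.07 ± 0.56 and -0.22 ± 0.44 in IE vs CONT, and -1.06 ± 0.96 and 0.43 ± 0.86 in IE vs ME. The coactivator Crebbp had 0.03, 0.01 and 0.00.

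Of 38 peptide hormones and their receptors, 2 were higher and 3 lower in ME vs CONT, 1 and 4 in IE vs CONT, and 3 and 2 in IE vs ME, with medians of 0.014, 0.014 and 0.016. Besides those named above, Ednrb, an endothelin receptor, was lower in IE than CONT (-0.10 and -0.12). Sst (somatostatin) had 0.19 and -0.06 in ME vs CONT and 0.03 and -0.29 in IE vs ME. Hcrt (orexin) and Calca (calcitonin gene-related peptide) were higher and Adcyap1 (PACAP) lower in IE than ME, by 0.10, 0.05 and -0.09. Both other probes of Adcyap1, printed once, had the opposite sign there (0.06 and 0.05), and the other probe of Calca had 0.06. Each of these other probes had its arrays on opposite sides of 0. Of 26 neurotransmitter receptors, transporters and enzymes, 2 were higher and 1 lower in ME vs CONT, 1 and 3 in IE vs CONT, and 2 and 1 in IE vs ME, with medians of -0.016, -0.049 and 0.027. Gria1, an AMPA receptor subunit, gave -0.36 and 0.13 in ME vs CONT and -0.42 and -0.01 in IE vs CONT, a split in the first and an array near 0 in the second.

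Of 14 growth factors and their receptors, 2 were higher in ME vs CONT (Ctgf and Bdnf), 3 in IE vs CONT (Ctgf and Bdnf among them), and in IE vs ME Vegfa was higher and Ctgf lower. The medians were 0.0050, 0.016 and 0.026. Bdnf, the brain-derived neurotrophic factor, had 0.17 ± 0.027 and 0.05 ± 0.025 in ME vs CONT, or 1.08-fold, and 0.14 ± 0.033 and 0.06 ± 0.058 in IE vs CONT, or 1.07-fold. Its IE vs ME arrays gave 0.10 and -0.03. A probe of Bdnf printed once had 0.14 and 0.00 in ME vs CONT and 0.10 and 0.08 in IE vs CONT. These ratios are above the spread of spots and far below the 1.5-fold limit.

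Of 9 genes of apoptosis, cell cycle and DNA repair, Cdkn1a, the cell cycle inhibitor p21, was higher in IE than CONT (0.16 and 0.12), and no other gene of the list was beyond the spread. Cdkn1b, a related inhibitor, gave 0.22 and -0.09 in ME vs CONT. Of 25 signalling kinases and transcription factors, 24 with all spots above background, Prkcd was higher in both exercise pools and lower in IE than ME, and Prkce, another protein kinase C, lower in IE than CONT (-0.12 and -0.03). Camk2a, the calcium/calmodulin-dependent kinase of synapses, gave -0.32 and 0.38 in ME vs CONT. Medians were 0.015, 0.037 and 0.023 for the first list and -0.0019, -0.0059 and -0.012 for the second.

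Of 9 matrix, protease and adhesion genes, Timp1 and Fn1 were higher in ME vs CONT and lower in IE vs ME, and Mmp9 was higher in IE vs CONT, with medians of -0.0045, 0.0058 and 0.0039. None of the 6 detoxification and stress genes was beyond the spread (medians 0.019, 0.0037 and -0.027). The small heat shock protein Hspb1 gave 0.29 and -0.003 in ME vs CONT and the acetyltransferase Nat1 0.09 and -0.10. Of 16 genes of ion channels, pumps and vascular tone, Itpr1 was lower in both exercise pools (-0.08 and -0.09), and Aqp1 and Slc12a2 differed as given above. By the direct arrays Itpr1 was higher in IE than ME (0.13), although its values against CONT were nearly equal. That list had medians of -0.027, -0.024 and 0.019. Aqp2, a water channel known from kidney, gave -0.01 and 0.31 in IE vs ME. Of 7 neuron and glia structural genes, Mtap2 was lower in both exercise pools, Snap25, a protein of vesicle fusion, was higher in ME (0.01 and 0.03) and lower in IE (-0.03 and -0.04), and Gap43, a growth cone protein, higher in IE than ME (0.03 and 0.08), with medians of -0.019, -0.033 and 0.031. The other 66 genes were in no list and held 7 genes beyond the spread in ME vs CONT, 3 in IE vs CONT and 5 in IE vs ME.

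Gfap, the filament protein of astrocytes, shows what repeated spots cannot tell. Its kept spots had an SD of 0.024 to 0.048 on every array. Array 1 of ME vs CONT gave -0.49 and array 2 gave 0.41, IE vs CONT gave -0.54 and 0.41, and IE vs ME gave -0.19 and 0.17. Every array had less Cy5 than Cy3, whichever pool carried it, and the means over the dye swaps were -0.04, -0.07 and -0.01. Each array against CONT alone placed Gfap many spot SDs from 0, in a direction set by the dye.

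The same held for many genes. In ME vs CONT 112 genes, in IE vs CONT 105 and in IE vs ME 139 had both arrays apart from 0 with the same dye brighter, against the 26, 26 and 25 with the same pool higher. For 58 genes this was so in all 3 comparisons. The median difference between the arrays of a dye swap was 0.18, 0.19 and 0.26, whereas the spots alone give a standard error of 0.026, 0.027 and 0.026 for it. The arrays of a swap thus differed by far more than their spots did.

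**Figure D4:**
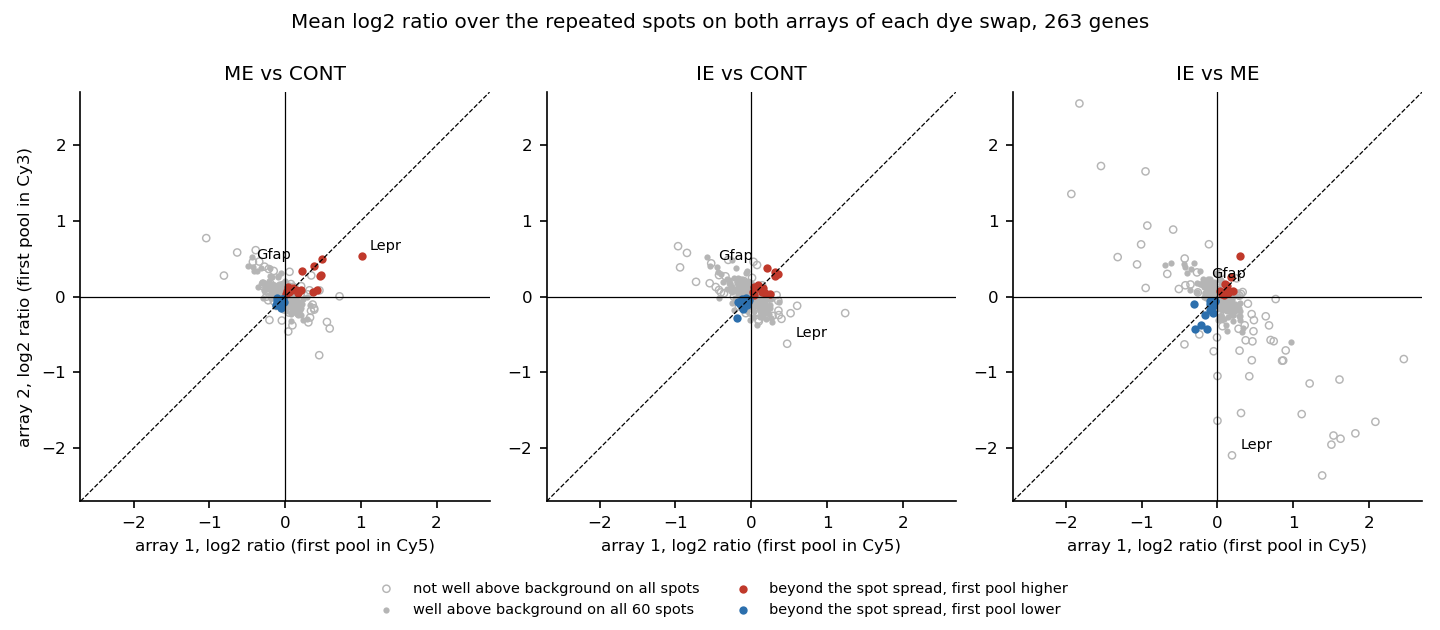
Mean log2 ratio over spots on array 2 against array 1 for the 263 genes in each comparison, turned to the pools, with the dashed line marking equal values. Most points run from upper left to lower right, where the same dye is brighter on both arrays. The genes beyond the spot spread (red and blue) lie at the lower left and upper right by the rule that selected them.

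The leaning of a gene to a dye, the mean log2 of Cy5/Cy3 over a pair, was alike in the pairs. Across the 194 genes with all spots above background it correlated with Pearson's r of 0.97 between ME vs CONT and IE vs CONT, which share a slide and the CONT pool, and with 0.56 and 0.58 between these and IE vs ME. Genes are not independent replicates, and these values describe the probes. Probes with more T leaned to Cy5 (r of 0.34, 0.39 and 0.35 with the number of T in the 60 bases). The third of these genes with Cy3 brightest had 15.0 ± 3.27 T (mean ± SD, n = 64 genes) and the third with Cy5 brightest 18.6 ± 4.49. Gfap has 6 T in its probe, the fewest of the 263 together with Eif4b, and leaned by -0.37. Npy and Crh, of neuropeptide Y and corticotropin-releasing hormone, have 25 and 22 T and leaned by 0.24 and 0.28. Gnas, a G protein subunit, with 14 T and 0.29, goes against this order. Eif4b, a translation initiation factor with the same 6 T, leaned by -0.05 only. Arc and Ctgf leaned by 0.0082 and 0.0093.

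The 3 comparisons measured each pool against both others, so IE vs CONT minus ME vs CONT should equal IE vs ME apart from error. The median size of the remainder was 0.047 over the 263 genes, 0.034 over the 194 genes with all spots above background, and 0.058 over 24511 probes printed once with every spot above background. From the spots alone, a standard error of 0.017 would apply to the 194 genes. Within 0.1 were 85.1% of the 194 genes and 70.1% of the 24511 probes. For Arc the remainder was 0.00, for Ctgf and Prkcd 0.03 and for Timp1 0.09. It was -0.25 for Ins1, the largest in size of the 194, followed by -0.22 for Aqp1, and 1.25 for Agtr2, an angiotensin receptor with 12 of 60 spots above background.

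**Figure D5:**
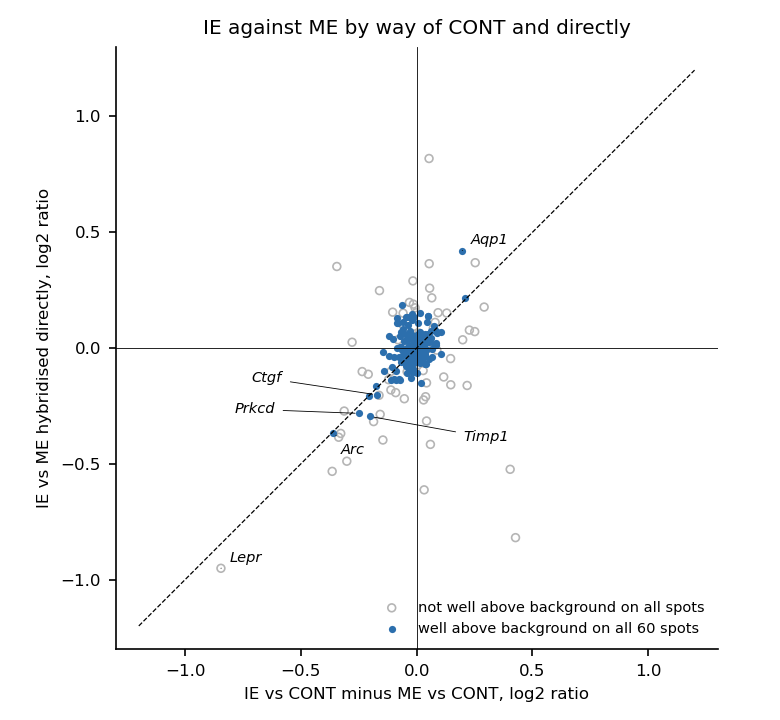
IE vs ME measured directly against IE vs CONT minus ME vs CONT, as log2 ratios for the 263 genes, with the dashed line marking equal values. Arc, Prkcd, Timp1 and Ctgf lie below 0 on both axes, Aqp1 above 0 on both, and open circles, which include Lepr, mark genes without signal on all spots.

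At the level of spots, 0.911% of the kept spots were past the fold range without the p in ME vs CONT (21 of 2304), 0.424% in IE vs CONT (10 of 2360) and 0.524% in IE vs ME (13 of 2479), against 0.987, 0.667 and 1.06% of all probes. With the p, taking 1 spot per gene called none at any of the 10 spot positions. In ME vs CONT 13 genes (4.94%), in IE vs CONT 8 (3.04%) and in IE vs ME 11 (4.18%) had at least 1 spot, paired between arrays by file order, past the range on both arrays, where the means gave 1, 0 and 1. A gene had up to 10 chances here, which probes printed once do not have. None of these genes had all spots above background. The spots of Esr1 went past the range upward at 2 positions and downward at 2 others in ME vs CONT. Lepr had 5 spots past it, all upward. For 10, 6 and 10 of the genes a single spot decided.

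Other probes, printed once, were available for 107 of the genes (143 probes). Where both were above background throughout (102 pairs of probes, 73 genes), the ratios differed by a median of 0.031 in ME vs CONT, 0.048 in IE vs CONT and 0.048 in IE vs ME. For genes beyond the spot spread the medians were 0.039 (11 pairs), 0.065 (16 pairs) and 0.095 (12 pairs). The other probe had the same sign in 9, 12 and 8 of these pairs. Over all 102 pairs the sign was the same in 71, 64 and 62, so equal signs were common without this selection too. For Fn1 the other probe gave 0.11 in ME vs CONT and -0.15 in IE vs ME, next to 0.12 and -0.14. For Syt1 both other probes were lower in ME (-0.10 and -0.05) and in IE (-0.02 and -0.05). Vegfa gave 0.11 by its other probe in IE vs ME, from arrays of -0.09 and 0.30. The other probe of Slc12a2 gave -0.07 in IE vs CONT where the gene had -0.24, and that of Mtap2 gave 0.0045 there, from arrays of 0.17 and -0.16, where the gene had -0.11. The other probe of Chrna7 with signal gave -0.02 in IE vs ME where the gene had -0.21. Arc, Ctgf, Prkcd, Timp1 and Aqp1 had no other probe under the same name.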

How the data were processed

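Hippocampal RNA of 3 pools was hybridised on 6 Agilent arrays of 2 colours, on 2 slides. The authors extracted the scans with Agilent Feature Extraction (version 9.5.3.1 for the arrays against CONT, 11.0.1.1 for IE vs ME, per the file headers), which corrected background and dyes and deposited a log10 ratio of Cy5 over Cy3, its p-value and processed intensity for each spot. A second table that the authors deposited gives log10 ratios of the processed signals and was an alternative. Here the deposited log10 ratios were converted to log2 and turned to the pools. Control spots and outlier spots were left out, and spots of a probe were averaged. The software marks population outliers only from 10 spots on. The p-value of a gene is the median over its spots. With 1 pool per group by the study's methods there was no test across rats.

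The print number fixes the 263 probes without any measured value, but the choice to describe these members, and the gene lists, were made with earlier results of these data known. Named were the 7 genes Tnf, Il1b, Il10, Gfap, Irs1, Lepr and Esr1, the 5 highest and 5 lowest beyond the spot spread per comparison, 2 genes per list by ratio over spot error, and the 5 largest and 3 smallest spot SDs. Genes named outside this rule (such as Egr1, Igf1, Eif4b, Npy, Crh and Gnas) were chosen after their values were seen. Some genes that the rule names are not reported here. Newer symbols matched 218 of 263 genes. Markers of neighbouring tissues were taken from probes of the same arrays. Alternatives were outlier spots kept, processed signals, normexp (offset 50) with loess, median centring, the median over spots, spots above background only, other thresholds, single arrays and a joint limma fit. Scripts were tested on simulated data. Tools were limma 3.58.1 in R 4.3.3 and numpy 2.4.6, pandas 2.3.3 and scipy 1.17.1 in Python 3.11.15.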

Additional observations from a re-analysis of the deposited data

Results flagged for a closer look

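Snap25, a protein of synaptic vesicle fusion, was higher in ME than CONT on both arrays (log2 ratio 0.023) and lower in IE than CONT on both arrays (-0.033). The arrays of one comparison thus pointed opposite to those of the other. The difference was not tested, both comparisons share the CONT pool, and in the joint limma fit the ME vs CONT value was -0.0060.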

How the results depend on the processing

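No paired analysis was possible because by the study's methods only 1 pool stood for each group, hybridised again with dyes exchanged. The 26, 26 and 25 genes beyond the spot spread in ME vs CONT, then IE vs CONT, then IE vs ME became 11, 8 and 11 with Bonferroni adjustment over the 263 genes. With an interval of the dye-swap mean, chosen after seeing the data, they became 138, 142 and 153. With normexp and loess they became 20 (17 higher and 3 lower), 20 (9 and 11) and 16 (9 and 7), of which 16, 17 and 13 were among those counted above. On single arrays the counts were 172 to 173, 158 to 183 and 198 to 204. By the fold range and p, where no gene passed, leaving out the p gave 1 in ME vs CONT (Lepr) and 1 in IE vs ME (Cyp2e1). Single arrays gave 0 to 2 in ME vs CONT (Ccl2 and Lepr on array 1), 0 to 2 in IE vs CONT (array 1, Gfap among them) and 9 on either array of IE vs ME. The median spot SD, 0.053, was 0.057 with outlier spots kept, 0.059 with normexp and loess, and 0.045 with only spots above background. With normexp and loess the median difference between arrays was 0.079, 0.10 and 0.20, and the share of genes with a spot past the fold range was 0% in each comparison. Among the ratios beyond the spot spread that are reported here, that of Snap25 in ME vs CONT reversed in the joint limma fit (-0.0060). Of 72 such ratios, 25 moved by more than the spread between arrays with normexp and loess, 19 with the joint limma fit, 7 with the median over spots and 1 with centring. The causes were not tested. The precision is limited by 6 arrays, 1 pool per group, and low signal over background for 55 genes with some spots and 14 with no spot above background.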
